A study of Mus musculus with 3 samples.

Results

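The 6 nuclear receptors for retinoids (Rara, Rarb, Rarg, Rxra, Rxrb and Rxrg) and the receptor-binding corepressor gene Nrip1 were followed through the fetal testis of mice in which retinoic acid clearance had been targeted. Members were all non-control array features whose transcript accession pointed to 1 of these 7 genes in a mouse RefSeq gene table. This gave 10 of the 41174 features (probes) on the array: 2 each for Rarg, Rxra and Rxrb, and 1 each for Rara, Rarb, Rxrg and Nrip1. That rule uses no measured value, although the gene set was picked with earlier results of these data known.

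Retinoic acid acts through heterodimers of a retinoic acid receptor (RAR alpha, beta or gamma) with a retinoid X receptor (RXR alpha, beta or gamma). The pairs sit on response elements, classically direct repeats of a hexamer related to AGGTCA, and exchange corepressors for coactivators when ligand binds. RXRs also pair with other nuclear receptors, such as those for thyroid hormone and vitamin D. In the fetal testis the enzyme CYP26B1 degrades retinoic acid, which otherwise induces Stra8 and meiotic entry in germ cells. Rarb is a textbook direct target of its own pathway, through a direct repeat with a spacer of 5 bases beside its start site, and Nrip1 encodes RIP140, a corepressor that binds liganded receptors and is itself inducible by retinoic acid.

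Total RNA of male gonads from embryos of the mouse line named MCH, at embryonic day 14.5, was labelled with Cy3 (0.2 µg RNA) and hybridised to 1-colour Agilent arrays. Each of 3 genotypes was measured on 2 arrays: wild type, Cyp26b1-/- (Cyp26b1 knockout) and Cyp26b1-/-/Stra8-/- (double knockout). Both knockout groups lack Cyp26b1 by label, so Stra8 was targeted only on the Cyp26b1-/- background and was not examined alone. The design text calls the duplicates biological. How the alleles were built, in which cells they act and whether embryos were pooled is not stated in the labels, and the p-values here rest on the array-to-array spread alone. Whole gonads were measured, so fewer cells of a type and less RNA per cell cannot be told apart.

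Values are processed signals on the log2 scale, less the 75th percentile of their array, so that 0 is the level of an upper-quartile probe. Upper quartiles ran from 974 to 1494 intensity units, 61.9% to 68.6% of probes were well above background, and paired arrays of a genotype correlated at 0.994 to 0.996. Each genotype was on 1 slide of its own, so slide and genotype cannot be told apart, and the Cyp26b1 knockout slide was scanned on another day than the other two. Neither targeted gene had a mean below wild type in a knockout group. Cyp26b1 stood at 3.93 ± 0.14 (SD, n = 2) in wild type, 4.05 ± 0.31 in the Cyp26b1 knockout and 4.01 ± 0.14 in the double knockout, and Stra8 at 3.07 ± 0.94, 7.11 ± 0.11 and 6.06 ± 0.11. Stra8 was above wild type by 4.04 ± 0.36 (log2 ± SE, limma adjusted p = 0.000184) in the Cyp26b1 knockout. It was above wild type by 2.98 ± 0.36 (adjusted p = 0.00387) in the double knockout. Stra8 was lower in the double knockout than in the Cyp26b1 knockout (log2 change -1.05 ± 0.36 SE, limma adjusted p = 0.0447). The sources do not place these probes within or outside the deleted sequence, so they check neither label, and every direction below is that of the arrays labelled with a genotype. All 10 germ cell, all 10 Sertoli cell and all 5 measured fetal Leydig cell markers were well above background on all 6 arrays, whereas the ovarian somatic markers Foxl2 and Irx3 were so on 1 and 0 arrays.

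The promoter windows of the members were read first for the hexamers AGGTCA or GGGTCA or AGTTCA or GGTTCA, the units of such repeats, on both strands. RefSeq promoter windows on build GRCm38.p6, 250 bases before to 50 bases after a start, were found for all 7 genes, 15 windows in all. The Rarb window, chr14:16575427-16575726 on the minus strand, is shown because Rarb rose most over wild type and its window alone among the 15 held 2 hexamers as a direct repeat with a spacer of 5. The Rarg window at chr15:102257473-102257772 (minus strand) is shown because Rarg was the other receptor raised in both knockout groups, and that of Nrip1 at chr16:76373778-76374077 (minus strand) for the corepressor. Capitals mark hexamers, and on the opposite strand they read as the reverse complement.
Rarb promoter: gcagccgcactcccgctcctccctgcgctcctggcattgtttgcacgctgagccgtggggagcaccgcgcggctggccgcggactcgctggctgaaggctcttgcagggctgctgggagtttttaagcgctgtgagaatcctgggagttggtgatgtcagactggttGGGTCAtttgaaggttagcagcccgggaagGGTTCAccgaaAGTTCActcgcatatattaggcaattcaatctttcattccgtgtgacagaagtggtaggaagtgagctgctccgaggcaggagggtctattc
Rarg promoter: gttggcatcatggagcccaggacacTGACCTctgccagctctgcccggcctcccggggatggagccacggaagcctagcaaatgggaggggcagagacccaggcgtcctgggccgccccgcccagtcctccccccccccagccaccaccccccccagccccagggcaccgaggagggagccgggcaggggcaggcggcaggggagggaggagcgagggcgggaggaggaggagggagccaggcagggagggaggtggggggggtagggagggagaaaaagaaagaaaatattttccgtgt
Nrip1 promoter: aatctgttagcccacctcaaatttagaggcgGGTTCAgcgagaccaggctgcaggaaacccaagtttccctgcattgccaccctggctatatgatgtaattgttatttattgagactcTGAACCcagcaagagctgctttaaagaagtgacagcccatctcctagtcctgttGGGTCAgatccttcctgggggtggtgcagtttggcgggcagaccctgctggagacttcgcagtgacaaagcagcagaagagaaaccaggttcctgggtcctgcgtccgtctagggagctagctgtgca
The repeat in the Rarb window reads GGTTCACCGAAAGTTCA and lies at chr14:16575513-16575529, upstream of the start, with a further hexamer GGGTCA before it. A direct repeat of these hexamers with a spacer of 5 was found in 32 of all 32851 such windows (0.0974%). Direct repeats with a spacer of 2 (0.268% of windows) or of 1 (0.222%) were found in none of the 15 windows. Single hexamers are common, being in 43.7% of all windows. The Rarg window shown holds 1 and the other Rarg window 0. The Nrip1 window shown holds 3 and the other Nrip1 window 0. Both Rxrb windows hold none, while the Rara windows hold 0 to 4, the Rxra windows 0 to 3 and the Rxrg windows 1 to 2. These matches are descriptions of letters in a short window, and the arrays did not measure binding.

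All 10 member probes were well above background on all 6 arrays and none was saturated, so all entered the fit of 27864 probes by their own signal in every genotype. In the Cyp26b1 knockout, 6 of the 10 probes (5 genes: Rara, Rarb, Rarg, Rxrb and Rxrg) were higher than in wild type and 1 (Nrip1) was lower, by limma at a Benjamini-Hochberg adjusted p under 0.05. Of all probes tested in that comparison 53.4% were called, 25.2% higher and 28.2% lower, so a call by itself was common there. The median change of the 10 probes was 0.83, against -0.04 for all probes. In the double knockout 2 probes (Rarb and Rarg) were higher than in wild type and 0 lower, where 11.5% of all probes were called (5.09% higher and 6.46% lower), and the median changes were 0.27 and -0.02. Between the double knockout and the Cyp26b1 knockout, 4 member probes (Rara, Rxrg and both of Rxrb) were lower and 1 (Nrip1) was higher, against 46.0% of all probes called (23.7% higher and 22.3% lower). These 3 comparisons share arrays and are not independent of each other. At n = 2 against 2, an exact permutation test of one probe cannot give a p below 0.333.

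**Figure D1:**
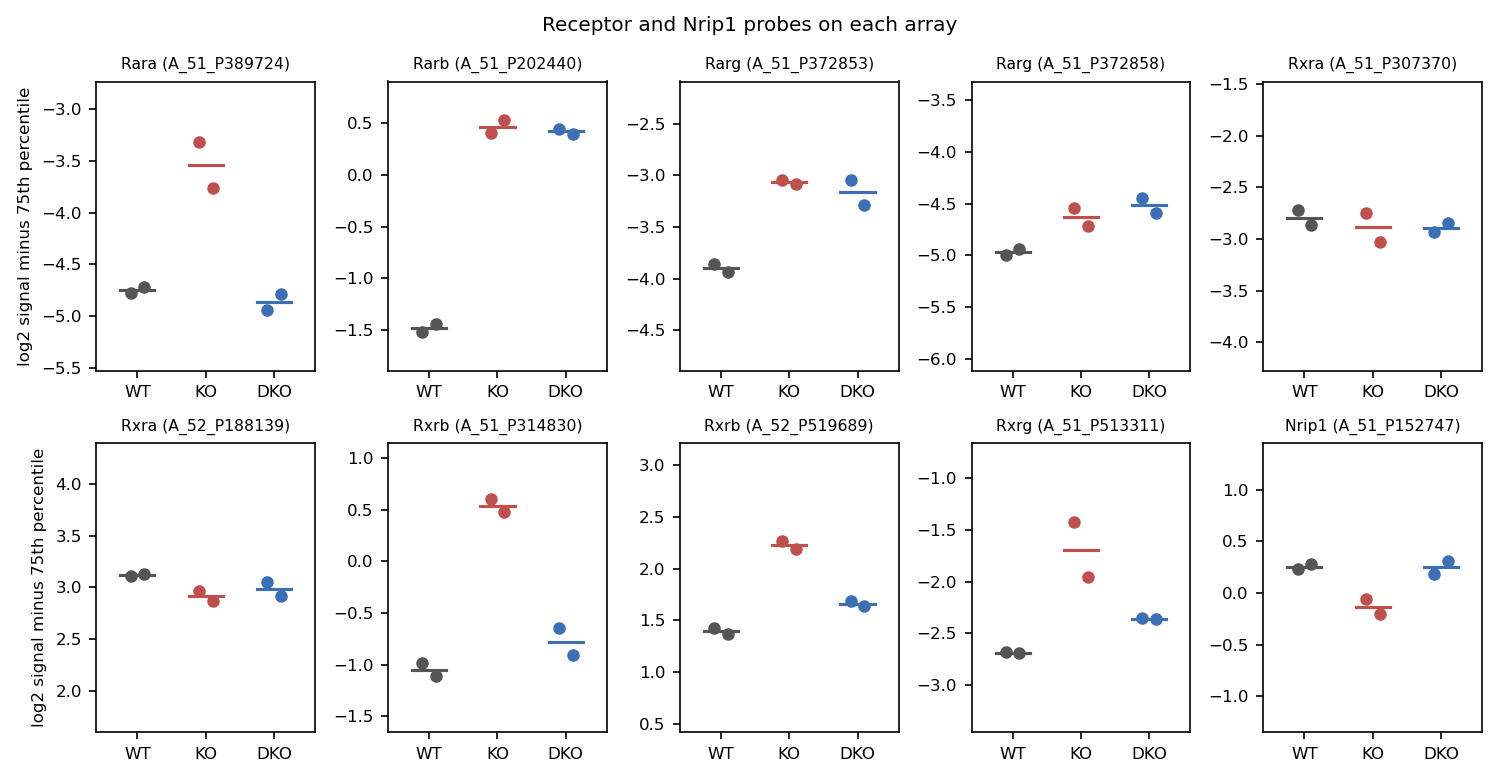
Log2 signal minus the array's 75th percentile for the 10 member probes, 1 panel per probe, each panel spanning the same log2 range. Points are single arrays (WT wild type, KO Cyp26b1 knockout, DKO double knockout) and lines are means of 2 arrays: Rarb rose from -1.48 to 0.47 and 0.42, whereas Rara, Rxrb and Rxrg stood highest in the Cyp26b1 knockout.

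The receptor that rose most over wild type was Rarb, which encodes RAR beta (probe A_51_P202440). It read -1.52 and -1.44 on the wild-type arrays, 0.40 and 0.53 on the Cyp26b1 knockout arrays, and 0.44 and 0.40 on the double knockout arrays. Both wild-type arrays were thus low, all 4 knockout arrays were high, and the knockout groups lay on top of each other. Rarb rose by 1.95 ± 0.10 (log2 ± SE, adjusted p = 4.67e-05) in the Cyp26b1 knockout, a 3.86-fold change, and by 1.90 ± 0.10 (adjusted p = 0.000213) in the double knockout. Of all probes tested, 426 (1.53%) rose further in the first comparison and 117 (0.420%) in the second. The double knockout differed from the Cyp26b1 knockout by -0.04, with a 95% interval from -0.27 to 0.18, and that difference did not pass the test (adjusted p = 0.734). With the authors' own scaling between genotypes this difference was -0.35 (adjusted p = 0.0205), so whether the groups with and without Stra8 were equal in Rarb depends on the scaling. The rise over wild type was present under every setting tried, from 1.54 to 2.05 and from 1.44 to 2.04.

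The array carries 10 spots of the Rarb probe, which gives a direct view of the measurement error on each array. Processed signals ran from 413 to 481 and from 525 to 587 on the wild-type arrays, from 1241 to 1349 and from 1506 to 1661 on the Cyp26b1 knockout arrays, and from 1599 to 1682 and from 1769 to 1911 on the double knockout arrays. The SD between spots of one array was 0.030 to 0.071 on the log2 scale, far under the change between genotypes. On 1 Cyp26b1 knockout array and 1 double knockout array 1 spot was marked as an outlier by the software, leaving 9 spots. Spots of an array share its RNA and are no replicates of a genotype.

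**Figure D2:**
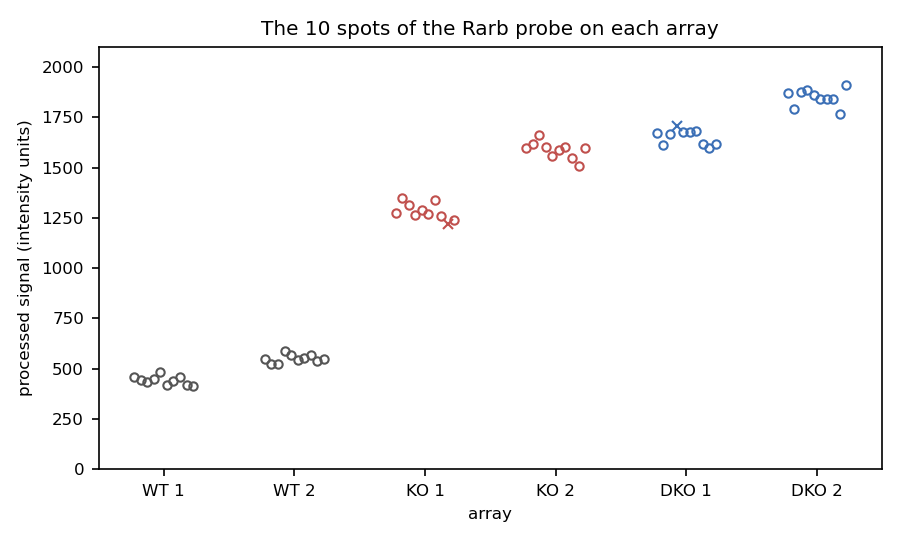
Processed signal (linear intensity units, axis from 0) of every Rarb spot on each of the 6 arrays; crosses are spots marked as outliers and not used. No spot of a wild-type array exceeded 587, and the used spots of the knockout arrays started at 1241.

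Rarg, which encodes RAR gamma, was also higher in both knockout groups at 1 of its 2 probes. A_51_P372853 read -3.86 and -3.94 in wild type, -3.05 and -3.08 in the Cyp26b1 knockout, and -3.05 and -3.28 in the double knockout. Every knockout array lay above both wild-type arrays. It rose by 0.83 ± 0.16 (adjusted p = 0.00391) and by 0.73 ± 0.16 (adjusted p = 0.0298). The call in the double knockout did not survive leaving out any 1 of the 4 arrays compared, with adjusted p from 0.0572 to 0.169, and with no filter on dim probes (0.0703). The other probe, A_51_P372858, read -4.99 and -4.94 in wild type, -4.54 and -4.72 in the Cyp26b1 knockout, and -4.44 and -4.59 in the double knockout. These scaled values did not overlap with wild type. Before scaling, its Cyp26b1 knockout signals (42.0 and 41.8 units) lay between those of wild type (39.6 and 48.7). Its changes were 0.34 (95% interval -0.14 to 0.82, adjusted p = 0.197) and 0.45 (-0.03 to 0.93, adjusted p = 0.192) and did not pass. Between the knockout groups neither Rarg probe passed (-0.10, adjusted p = 0.625, and 0.11, adjusted p = 0.681). With normexp on all spots the first probe changed by -0.33 and -0.16 against wild type, and with normexp without marked spots the other passed in the Cyp26b1 knockout (0.39, adjusted p = 0.0257). Rarg signals were low: its processed signals were 87.1 to 146 units at the first probe and 39.6 to 58.1 at the other.

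Rara encodes RAR alpha, the form usually named for spermatogenesis, and it differed from Rarb and Rarg in which arrays were high. Its probe A_51_P389724 read -4.77 and -4.72 in wild type, -3.32 and -3.76 in the Cyp26b1 knockout, and -4.95 and -4.79 in the double knockout. Only the Cyp26b1 knockout arrays were high, and they differed from each other by more than any other pair of arrays of one genotype at this probe. Rara rose by 1.21 ± 0.22 (adjusted p = 0.00304) in the Cyp26b1 knockout, and the double knockout lay below it (log2 change -1.33 ± 0.22, adjusted p = 0.00275). Against wild type the double knockout stood at -0.12, with an interval from -0.63 to 0.39 (adjusted p = 0.757). Its processed signals were low, 39.3 to 97.8 intensity units, with a software error of 10.3% to 16.9% per array. Under normexp background correction fitted on all spots its change in the Cyp26b1 knockout was -0.44 (adjusted p = 0.764). With normexp fitted without marked spots it was 0.66 (adjusted p = 0.00430), still higher but smaller.

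The RXR genes, whose products are the shared partners of the RARs, did not move as a group. Rxra encodes RXR alpha, and neither of its probes passed in any of the 3 comparisons. A_51_P307370 read -2.72 and -2.87 in wild type, -2.74 and -3.03 in the Cyp26b1 knockout, and -2.93 and -2.85 in the double knockout, with overlapping groups. A_52_P188139 read 3.11 and 3.13, then 2.96 and 2.87, then 3.05 and 2.92. At that probe the wild-type arrays were highest, and the change in the Cyp26b1 knockout was -0.20 ± 0.09 (adjusted p = 0.0819, interval -0.40 to -0.0019). The other probe changed by -0.09 (interval -0.46 to 0.28, adjusted p = 0.646). The double knockout changed by -0.10 (adjusted p = 0.730) and -0.14 (adjusted p = 0.336) against wild type at the 2 probes. A_52_P188139 did pass in the Cyp26b1 knockout with normexp without marked spots (-0.23, adjusted p = 0.0498) and in the double knockout with the authors' scaling (-0.34, adjusted p = 0.0311).

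Rxrb, encoding RXR beta, rose in the Cyp26b1 knockout at both probes. A_51_P314830 read -0.99 and -1.11 in wild type, 0.60 and 0.48 in the Cyp26b1 knockout, and -0.65 and -0.90 in the double knockout. A_52_P519689 read 1.43 and 1.37, then 2.26 and 2.19, then 1.69 and 1.64. At both probes the Cyp26b1 knockout was highest and the double knockout lay between, with no overlap. The rises were 1.59 ± 0.12 (adjusted p = 0.000122) and 0.83 ± 0.08 (adjusted p = 0.000249). Against the Cyp26b1 knockout, the double knockout changed by -1.31 ± 0.12 (adjusted p = 0.000402) and -0.56 ± 0.08 (adjusted p = 0.00160). Against wild type it stood at 0.27 (adjusted p = 0.184) and 0.26 (adjusted p = 0.0798), neither of which passed, although with median scaling the second did (0.39, adjusted p = 0.0339). The probes ran in parallel over the 6 arrays (r = 0.986, as a description), but differed in size by 0.76 in the Cyp26b1 knockout and by 0.010 in the double knockout. The target positions of the probes within the transcripts were not analysed here. Both Rxrb probes kept their calls in the Cyp26b1 knockout, against wild type and against the double knockout, under every setting tried, normexp on all spots included.

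Rxrg encodes RXR gamma, the most tissue-restricted RXR. Its probe A_51_P513311 read -2.68 and -2.69 in wild type, -1.42 and -1.96 in the Cyp26b1 knockout, and -2.35 and -2.36 in the double knockout. The groups did not overlap, and the Cyp26b1 knockout pair was spread far more widely than the others. Rxrg rose by 0.998 ± 0.18 (adjusted p = 0.00316) in the Cyp26b1 knockout. The double knockout changed by -0.67 ± 0.18 against it (adjusted p = 0.0207), a call lost without Cyp26b1 knockout replicate 1 or either double knockout array, and by 0.33 (interval -0.09 to 0.76, adjusted p = 0.270) against wild type. With normexp on all spots neither call held (0.28, adjusted p = 0.701, and -0.42, adjusted p = 0.789).

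Nrip1 was the only member called lower than wild type in the fit reported here. Its probe A_51_P152747 read 0.23 and 0.28 in wild type, -0.06 and -0.21 in the Cyp26b1 knockout, and 0.19 and 0.31 in the double knockout. The Cyp26b1 knockout arrays were lowest, while wild type and double knockout overlapped. The change in the Cyp26b1 knockout was -0.39 ± 0.10 (adjusted p = 0.0133), a call lost without either wild-type array (adjusted p = 0.0539 and 0.0786) or Cyp26b1 knockout replicate 2 (0.0585). The double knockout differed from wild type by -0.0074 (interval -0.24 to 0.22, adjusted p = 0.968). Against the Cyp26b1 knockout it was higher by 0.38 ± 0.10 (adjusted p = 0.0172), a call lost without Cyp26b1 knockout or double knockout replicate 2. With the authors' scaling that difference was 0.08 (adjusted p = 0.556), and neither call passed with normexp on all spots (adjusted p = 0.306 and 0.354).

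**Figure D3:**
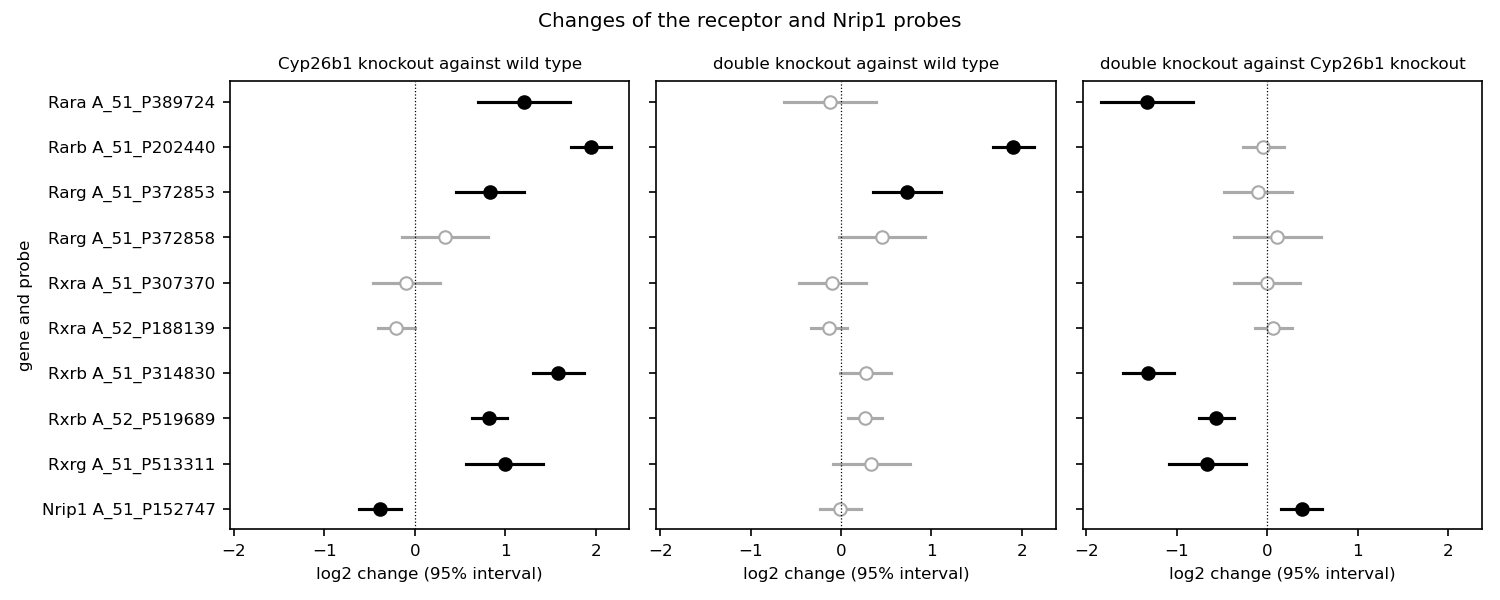
Log2 change with its 95% interval for each member probe in the 3 comparisons; filled black points passed limma at an adjusted p under 0.05 and open grey points did not. Rarb stood near 1.9 over wild type in both knockout groups, and Rara, Rxrb and Rxrg were raised in the Cyp26b1 knockout and below it in the double knockout.

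The Cyp26b1 knockout arrays had the lowest upper quartiles of signal (974 and 1099) and a scan day of their own, and the summed levels of some marker lists moved with them. The counts of markers called in the Cyp26b1 knockout stand beside 25.2% of all probes higher and 28.2% lower there. On a linear scale relative to the 75th percentile, summed germ cell markers were 104 to 105 in wild type, 68.1 to 81.3 in the Cyp26b1 knockout and 84.0 to 97.3 in the double knockout. Of the 10 germ cell markers 3 rose and 4 fell in the Cyp26b1 knockout. Summed Leydig cell markers were 96.5 to 112, 58.9 to 79.3 and 83.1 to 98.8, with 3 of 5 lower in the Cyp26b1 knockout. Summed Sertoli cell markers were 159 to 175, 189 to 194 and 165 to 195, with 3 of 10 higher and 3 lower. Summed mesonephros and duct markers were 19.2 to 19.6, 14.0 to 16.4 and 15.3 to 16.9, lower on all 4 knockout arrays, with 1 of 8 higher and 4 lower in the Cyp26b1 knockout. Summed endothelial markers were 12.1 to 12.7, 11.6 to 11.9 and 14.3 to 14.9, although 4 of 7 rose and 2 fell in the Cyp26b1 knockout (median change 0.54). Summed blood and macrophage markers were 386 to 438, 273 to 360 and 382 to 419, lowest on both Cyp26b1 knockout arrays, with 2 of 6 higher and 2 lower there. The 2 higher were C1qa (0.67) and Csf1r (0.66), and the 2 lower were Alas2 (-0.71) and Hba-a1 (-0.43), so the sum does not stand for each marker. Interstitial and peritubular sums (59.4 to 65.7, 53.9 to 61.5 and 61.9 to 67.9) overlapped between the genotypes except for the 2 knockout groups, and fetal ovary somatic sums were 11.8 to 12.1, 9.78 to 13.5 and 13.3 to 14.2. The part of any of these lists in the changes of the receptors and Nrip1 was not tested. Wild type and double knockout were scanned on 1 day. With those 4 arrays alone Rarb (limma adjusted p = 0.00106) and Rarg (adjusted p = 0.0412) were still called and no other member was, as in the fit of all 6. That fit holds no Cyp26b1 knockout array, so it cannot check the calls made with those arrays.

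Genes with the most similar profile over the 6 arrays were sought among 12288 genes, by Euclidean distance of centred log2 values, as a description with no test. Nearest to Rarb were Slc52a3, Gcgr and Slc14a1 (distance 0.307 to 0.339), which stood 1.67 to 1.77 above wild type in the Cyp26b1 knockout and 1.66 to 1.80 in the double knockout. Nearest to Rarg were P2ry2, Atoh8 and Tprn, to Rara Rnf167, Aven and Fubp1, to Rxrb Ogfr, Lrsam1 and Qdpr, to Rxrg Bax, Ino80c and Tssk5, and to Nrip1 Ccni, Ube2n and Kdm1a. Among them Kdm1a, which encodes a histone demethylase, changed by -0.36 in the Cyp26b1 knockout and 0.0073 in the double knockout, beside -0.39 and -0.0074 for Nrip1.

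The other genes of the pathway were read from lists, each gene at its brightest probe. Of 22 targets tested (of 26 listed), 14 retinoic acid targets rose and 3 fell in the Cyp26b1 knockout, beside 25.2% and 28.2% of all probes. Against wild type, 12 rose and 1 fell in the double knockout, beside 5.09% and 6.46% of all probes. Their median changes were 0.63 and 0.61, against -0.04 and -0.02 for all probes. Rec8, a meiotic cohesin subunit, rose by 2.76 and 3.06, and Cyp26a1, another retinoic acid hydroxylase, by 4.84 and 5.05 (its signal in wild type was well above background on 1 of the 2 arrays). The immediate early gene Egr1 changed by -1.62 and -0.69. Stra8 is in this list. Between the knockout groups 5 targets were higher in the double knockout and 4 lower (median 0.16, with 23.7% and 22.3% of all probes higher and lower), Meis2 (0.57) and Egr1 (0.93) among the higher.

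Of 10 tested genes of retinoid supply and clearance (of 13 listed), 2 rose and 5 fell in the Cyp26b1 knockout, beside 53.4% of all probes called there. In the double knockout 2 rose and 1 fell, beside 11.5% of all probes called. The retinaldehyde dehydrogenase gene Aldh1a1 changed by -1.20 and -0.999, and the related Aldh1a2 by -0.48 in the Cyp26b1 knockout. Aldh1a3 (0.84) and the plasma retinol carrier gene Rbp4 (0.68) were the 2 that rose in the double knockout. Bco1, which encodes a carotenoid-cleaving enzyme, was not well above background on either Cyp26b1 knockout array and was at least 4.53-fold lower there than in wild type (adjusted p = 0.00144), taking the lowest signal well above background as the bound. Against the Cyp26b1 knockout, 7 of the 10 were higher in the double knockout and 0 lower (23.7% and 22.3% of all probes), Rbp4 (0.57) and Aldh1a3 (0.41) among them. Aldh1a2 was higher by 0.30 in that comparison (adjusted p = 0.0370). With the authors' scaling its change was -0.0027 (adjusted p = 0.984), so its call there depends on the scaling. That scaling moved the median of all probes by -0.30 between the knockout groups. The split of 7 higher and 0 lower is therefore given for the scaling used here only.

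Coactivator and corepressor genes encode the proteins that receptors recruit. Of 16 coactivator genes, 4 rose and 7 fell in the Cyp26b1 knockout (25.2% and 28.2% of all probes), and 1 rose and 0 fell in the double knockout (5.09% and 6.46%). Ncoa3, of the p160 family, was higher in both (1.30 and 0.81), while the acetyltransferase gene Ep300 (-1.28) and the chromatin remodeller gene Smarca4 (-1.11) were lower in the Cyp26b1 knockout. In the double knockout these 2 were higher than in the Cyp26b1 knockout, by 1.04 and 1.004, as was Ppargc1a (0.91). In that comparison 6 coactivator genes were higher and 3 lower, beside 23.7% and 22.3% of all probes.

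Of 14 tested corepressor genes besides Nrip1 (of 16 listed), 3 rose and 4 fell in the Cyp26b1 knockout, a share near the 53.4% of all probes called, and 1 rose and 0 fell in the double knockout, where 11.5% of all probes were called. Nr2c2, which encodes the orphan receptor TR4 and is counted here as a corepressor, was higher in both (2.20 and 1.08). The deacetylase gene Hdac3 changed by 0.39 and Bcor by -0.62 in the Cyp26b1 knockout. Between the knockout groups 2 were higher in the double knockout, Bcor (0.57) among them, and 1 lower, Nr2c2 (-1.12). Of all probes 23.7% were higher and 22.3% lower in that comparison.

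Of 10 tested other partners of RXR (of 13 listed), 2 rose and 4 fell in the Cyp26b1 knockout, again near the 53.4% of all probes called. The vitamin D receptor gene Vdr rose by 1.04, and by 1.01 in the double knockout, where it was the 1 partner that rose, beside 5.09% of all probes. The thyroid hormone receptor gene Thra changed by -0.90 in the Cyp26b1 knockout and was higher by 0.84 in the double knockout than there. Pparg, the adipogenic receptor gene, rose by 1.92 in the Cyp26b1 knockout and was lower than that in the double knockout (log2 change -2.36). Nr1i3 was not well above background on either double knockout array and was at least 1.64-fold lower there than in wild type. Between the knockout groups 1 partner was higher and 3 lower in the double knockout, beside 23.7% and 22.3% of all probes.

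**Figure D4:**
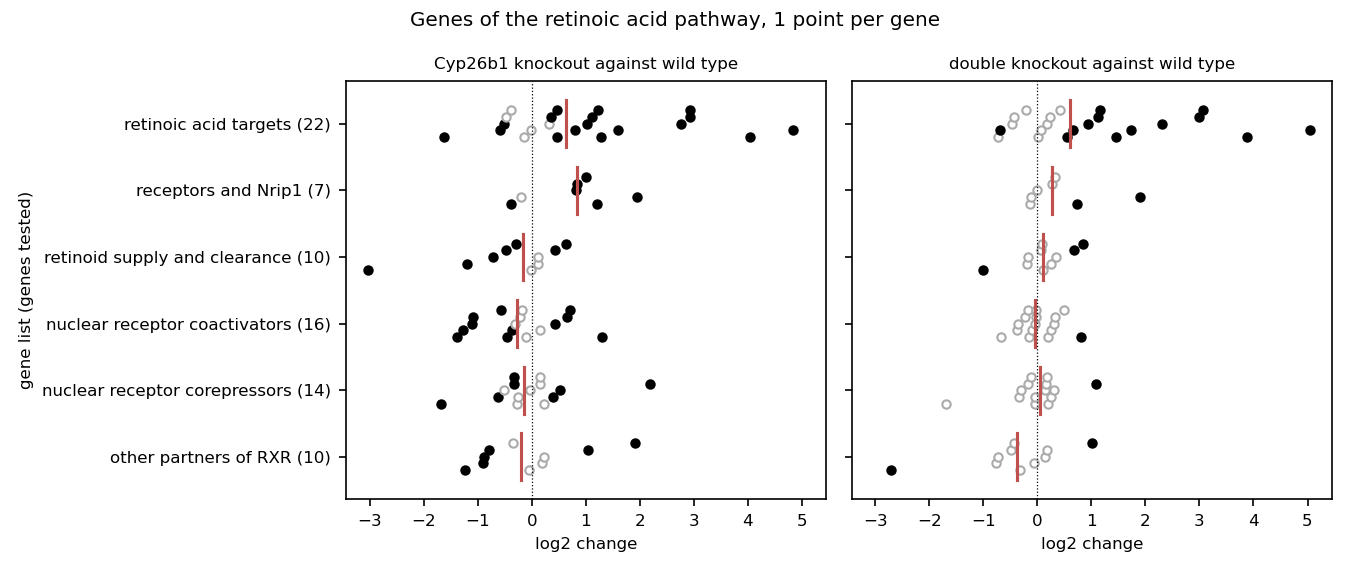
Log2 change of each tested gene of the pathway lists (1 point per gene, at its brightest probe) against wild type in the Cyp26b1 knockout and in the double knockout. Filled black points passed the test, open grey points did not, and red lines are list medians, 0.63 and 0.61 for retinoic acid targets.

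The receptors' changes were recomputed under each setting. Rarb kept its rise over wild type under all of them, with a highest adjusted p of 0.00112 in the Cyp26b1 knockout and 0.00475 in the double knockout. The dim probes of Rara and Rarg moved most when normexp was fitted on all spots.

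**Figure D5:**
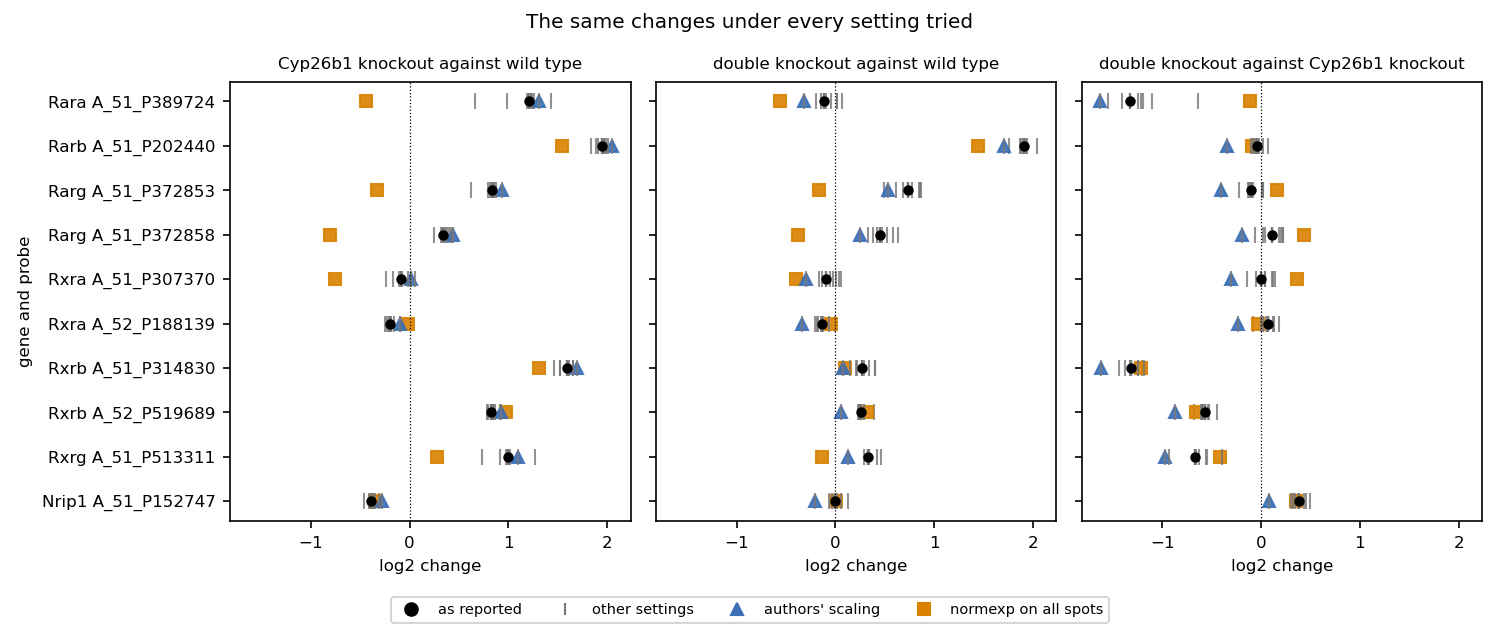
Log2 change of each member probe as reported (black), with the authors' scaling (triangles), with normexp on all spots (squares) and under the other settings (ticks). Rarb stayed at 1.44 or more over wild type in both knockout groups, whereas Rara and Rarg crossed 0 with normexp on all spots.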

How the data were processed

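The authors deposited 1 scanner file per array, holding spot intensities on a linear scale, and a value table with 1 column per genotype, which behaved as a linear ratio with columns of different medians (0.99979, 1.12 and 0.959). Image reading used Agilent Feature Extraction, version 9.5.3.1 per the file headers (9.5 in the submitters' processing notes). The array design names build mm8, per the file headers. No source used here states how the authors scaled their table.

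Control and outlier-marked spots were left out, spots of a probe were averaged, and log2 of the processed signal minus each array's 75th percentile was taken. Probes well above background on both arrays of a genotype (27864 of them) entered 1 limma fit (version 3.58.1, lmFit and eBayes with trend, R 4.3.3) over all 6 arrays, two-sided, with Benjamini-Hochberg adjustment over all of them and a threshold of 0.05. The fit had 3 residual and 4.43 prior degrees of freedom. Tested on simulated data with few changed probes, it recovered most of the changes, with false calls somewhat more frequent than the threshold allows. The simulation held no slide effect and far fewer changes than the 53.4% of probes called in the Cyp26b1 knockout. It therefore does not check the calls made here. Symbols came from RefSeq accessions: 23374 probes had 1 symbol and 17800 none. Promoters were searched in Python 3.11.15.

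Named were all members, the targeted genes, up to 3 genes with the smallest adjusted p per pathway list and comparison (brightest probe of a gene), and 3 nearest profiles per called member. Some genes that this rule chose are not reported here. For Egr1 the double knockout change against wild type, which the rule did not choose, is given too. The rule for members uses no measured value, but the members and lists were chosen with earlier results of these data known.

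Alternatives changed the scaling, background correction, dim-probe filter, variance trend, probes per gene, pairing and arrays. The scaling taken from the authors' table and the fit of only 4 arrays were chosen after seeing the data. The files hold a median and no mean spot signal, so normexp (offset 50) used the median. A random slide block was not run, since each slide held 1 genotype. Probe sequences were not used here.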

Additional observations from a re-analysis of the deposited data

How the results depend on the processing

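With normexp fitted on all spots, 4604, 570 and 3590 probes were called (Cyp26b1 knockout against wild type, double knockout against wild type, double knockout against Cyp26b1 knockout), against 14876, 3218 and 12826, and 3, 1 and 2 member probes, against 7, 2 and 5. That fit had a background SD of 613 units on wild-type array 2 and of 87.0 on double knockout array 1, against 0.645 to 1.78 on the other 4 arrays; fitted without marked spots it was 0.566 to 1.48 on all 6. Under the same setting Rara had a change of -0.44 in the Cyp26b1 knockout, and Rarg A_51_P372853 -0.33 there and -0.16 (adjusted p = 0.912) in the double knockout. Nr1i3 then had 0.46 (adjusted p = 0.973) between the knockout groups, against -1.48 without normexp. With no filter on dim probes the double knockout against wild type gave 1997 probes and 1 member, and with the authors' scaling 6570 probes. Leaving out 1 array gave 623 (without wild-type replicate 2) to 3522 probes and 1 to 2 members there, and 3 to 5 members between the knockout groups. Aldh1a2 lost its call with the authors' scaling between the knockout groups (-0.0027, adjusted p = 0.984, against 0.30 as reported). The cause of these differences between settings was not tested.

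Of double knockout calls against wild type 44.1% were higher, with median scaling 70.2% and with the authors' scaling 12.3%. Against the Cyp26b1 knockout these shares were 51.5%, 63.1% and 19.3%. Median scaling moved the median of all probes by 0.13 and 0.11 in these comparisons, and the authors' scaling moved it by 0.10, -0.20 and -0.30 in the 3. Of 481 recomputed member changes, 454 kept their side of the threshold without a called change reversing. Another 19 lost their call and 5 gained one. The remaining 3 were called changes that took the other sign, those of Rara and Rarg A_51_P372853 with normexp on all spots. Of the uncalled changes, 33 took the other sign. Array numbers come from file names and no label ties them to a litter or batch, so they were not taken as pairs; as a replicate block they gave 15570, 3645 and 13559 probes and the same numbers of members (7, 2 and 5). Deviations of same-numbered arrays correlated at 0.101 to 0.222. Signals near background limit Rara and Rarg.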
